A study of Mus musculus with 6 samples.

Results

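The transcripts of the subcortical maternal complex were examined in fully grown mouse oocytes that carried a truncating mutation of *Bnc1*. The set held 8 genes of the 17577 listed in each library, taken by gene symbol. *Nlrp5*, *Ooep*, *Tle6* and *Khdc3* formed the core of 4 members, and *Padi6*, *Zbed3*, *Nlrp2* and *Nlrp4f* were the 4 partners. All 8 were measured in every library and passed the filter on low values.

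The study asked how loss of intact basonuclin 1, a zinc finger protein of germ cells and keratinocytes, changes oocytes and follicles. Germinal vesicle oocytes, arrested in meiotic prophase, were sequenced from 12-week-old C57BL/6 J mice, with 3 libraries from Bnc1tr/tr females and 3 from wild-type (WT) females. The tr allele has a small deletion in the coding sequence that shifts the reading frame to an early stop codon. It was carried by the whole animal, including the somatic cells of the follicle, so a change in the oocyte is not restricted to loss of BNC1 in the oocyte itself. Per the study's methods, all females received pregnant mare serum gonadotropin before oocytes were taken from antral follicles, littermates were compared, and the cDNA of a single oocyte was amplified by a Smart-seq2 procedure. The study describes the libraries of a genotype as biological replicates. Whether each came from a separate animal is not given in the sources used here, so p-values measure the spread between these libraries, which may be partly technical.

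The subcortical maternal complex is a large assembly of maternal proteins that builds up under the plasma membrane of the growing oocyte and persists in the cleaving embryo. Its members are made from transcripts stored during oocyte growth, and embryos of mothers that lack NLRP5, OOEP, TLE6 or PADI6 stop at early cleavage stages. The same proteins are needed for the cytoplasmic lattices, fibrous structures on which the oocyte stores proteins for the embryo.

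The members lay on 5 chromosomes of the mouse genome (GRCm38, GENCODE M21 annotation). *Nlrp5* (NCBI Gene 23968) occupied chr7:23385889-23441923 on the plus strand with 16 exons in its longest transcript, and *Nlrp2* (232827) lay far from it at chr7:5298547-5351035 on the minus strand with 12 exons. *Ooep* (67968; chr9:78376903-78378588, minus strand) and *Khdc3* (66991; chr9:73101381-73106631, plus strand) were compact genes of 3 exons each. *Tle6* (114606; chr10:81590904-81601185, minus strand) lay 59 bases from its relative *Tle2*, and *Padi6* (242726; chr4:140727355-140742643, minus strand) stood 3222 bases from *Padi4*. *Nlrp4f* (97895; chr13:65177111-65205716, minus strand) and *Zbed3* (72114; chr13:95323605-95337842, plus strand) shared a chromosome.

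Promoters of 4 members are shown because the oocyte factors FIGLA and SOHLH1 bind E-boxes and NOBOX binds a short element of the sequence TAATTG, and because *Nlrp5* and *Nlrp2* gave the clearest differences between genotypes. Each window runs 5′ to 3′ on the gene's strand from 250 bases before to 50 bases after a RefSeq start site on GRCm38.p6. Capitals mark every E-box (CANNTG) and every TAATTG, searched on both strands, so that TAATTG on the other strand reads CAATTA. *Nlrp5* has 2 annotated starts, upstream at chr7:23385639-23385938 and downstream at chr7:23403852-23404151, both on the plus strand. The windows of the other genes are chr7:5350986-5351285 (minus strand) for *Nlrp2*, chr9:78378539-78378838 (minus strand) for *Ooep* and chr9:73102148-73102447 (plus strand) for *Khdc3*.
Nlrp5, upstream start: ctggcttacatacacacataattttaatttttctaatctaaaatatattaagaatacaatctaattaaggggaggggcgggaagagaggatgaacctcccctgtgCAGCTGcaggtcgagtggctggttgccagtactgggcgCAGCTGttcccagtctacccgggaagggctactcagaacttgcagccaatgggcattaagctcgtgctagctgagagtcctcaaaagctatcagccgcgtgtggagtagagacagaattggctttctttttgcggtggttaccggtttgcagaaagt
Nlrp5, downstream start: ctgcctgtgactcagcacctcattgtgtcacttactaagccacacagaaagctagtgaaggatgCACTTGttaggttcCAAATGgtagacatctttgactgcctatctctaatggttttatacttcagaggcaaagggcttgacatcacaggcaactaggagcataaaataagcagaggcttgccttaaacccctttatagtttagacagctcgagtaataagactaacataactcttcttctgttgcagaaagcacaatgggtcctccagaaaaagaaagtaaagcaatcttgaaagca
Nlrp2: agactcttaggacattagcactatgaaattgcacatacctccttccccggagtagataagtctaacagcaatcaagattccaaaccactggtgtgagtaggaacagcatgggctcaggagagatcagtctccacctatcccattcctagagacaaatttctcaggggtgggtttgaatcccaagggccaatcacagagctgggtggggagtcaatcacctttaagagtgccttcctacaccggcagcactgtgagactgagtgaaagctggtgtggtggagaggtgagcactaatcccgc
Ooep: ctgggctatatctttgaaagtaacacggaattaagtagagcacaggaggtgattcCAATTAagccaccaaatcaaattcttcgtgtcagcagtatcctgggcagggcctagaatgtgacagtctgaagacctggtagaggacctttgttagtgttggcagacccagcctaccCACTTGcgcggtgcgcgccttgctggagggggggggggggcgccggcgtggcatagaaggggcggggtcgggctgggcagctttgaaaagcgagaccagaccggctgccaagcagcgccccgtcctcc
Khdc3: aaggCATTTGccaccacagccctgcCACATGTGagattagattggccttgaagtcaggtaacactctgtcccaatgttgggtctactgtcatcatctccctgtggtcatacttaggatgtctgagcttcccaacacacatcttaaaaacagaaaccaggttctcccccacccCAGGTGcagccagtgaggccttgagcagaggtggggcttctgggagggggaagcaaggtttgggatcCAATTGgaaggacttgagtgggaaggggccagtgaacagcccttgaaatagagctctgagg

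Among 27025 RefSeq promoters of this length, the first listed of each gene, 72.1% held an E-box and 8.2% held TAATTG. For the members every annotated start was counted. Both *Nlrp5* windows held 2 E-boxes, the *Ooep* window held 1 E-box and 1 TAATTG, and the *Khdc3* window held 5 E-boxes, a pair of which overlap in the letters CACATGTG. At least 3 E-boxes occurred in 17.5% of the 27025 promoters. The *Nlrp2* window had neither motif, and *Nlrp2* was the only member with no E-box in any annotated window. Across the windows not printed, both *Tle6* starts held 3 and 4 E-boxes, *Padi6* held 2 E-boxes and 1 TAATTG, *Nlrp4f* held 3 E-boxes, and the 3 *Zbed3* starts held 1 to 3 E-boxes. CpG dinucleotides numbered 0 in the *Khdc3* window and 15 in the *Ooep* window, against a median of 7 over the 27025 promoters. These letters are a description of the windows and do not show that a factor binds there.

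Expression was given by the authors as FPKM, fragment counts scaled to transcript length and library depth, so levels of different genes can be set side by side within a library. FPKM measures a share of a library, and less RNA of a gene per oocyte cannot be told apart from more RNA of other genes. Depth, estimated from the steps between low FPKM values, was 12.7 to 21.6 M fragments (M, mega), at which the members had roughly 2090 fragments (*Nlrp2*, lowest library) to 102531 fragments (*Zbed3*, highest library). The estimate was weakest in WT replicate 3, which also deviated most from its group mean over all genes (root mean square 0.328 on the log2 scale, against 0.194 to 0.265 in the other 5 libraries). *Bnc1* itself was measured at 9.04, 6.51 and 5.83 FPKM in Bnc1tr/tr replicates 1 to 3 and at 13.2, 12.5 and 16.2 FPKM in WT replicates 1 to 3. Every Bnc1tr/tr library was below every WT library, with a log2 fold change of -0.89 (SE 0.20, limma adjusted p = 0.0090).

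The 10 oocyte markers summed to 9295 to 10396 FPKM in Bnc1tr/tr libraries and to 9190 to 11753 FPKM in WT libraries. Single markers did move: *Zp2*, a zona pellucida gene, was lower (387 against 655 FPKM, log2 fold change -0.74, limma adjusted p = 0.032) and the meiotic kinase gene *Mos* was higher (0.90, adjusted p = 0.019), while *Zp3* was at -0.62 (adjusted p = 0.063) and was not called. Of 12 listed granulosa and cumulus markers, 3 of the 6 tested were higher in Bnc1tr/tr oocytes, and the list summed to 51.1 to 67.3 FPKM there and to 23.5 to 42.6 FPKM in WT. The 3 were *Fshr* (5.25 against 0.350 FPKM, limma adjusted p = 0.00011), *Cyp11a1* (5.63 against 1.26 FPKM, 0.0013) and *Kitl* (2.46 against 1.14 FPKM, 0.018), where 24.1% of all tested genes were higher. Most of the sum was *Cyp19a1* (35.1 against 23.3 FPKM, not called), *Inha* was at 0.693 against 3.42 FPKM (not called), and *Foxl2*, a defining granulosa factor, was listed at 0 in 5 libraries and at 0.03 FPKM in WT replicate 1. Theca and stroma markers summed to 5.35 to 7.53 FPKM against 1.40 to 2.09 FPKM, immune markers to 1.70 to 54.5 FPKM against 1.39 to 2.94 FPKM, with *Lyz2* at 47.97 FPKM in Bnc1tr/tr replicate 2 giving the upper end, and erythroid markers to at most 10.1 FPKM against 0 in WT. Most of the theca and stroma sum was *Dcn* (6.11 against 1.62 FPKM, log2 fold change 1.44, limma adjusted p = 0.00051). *Dcn* was the only tested gene of that list. The part of all these marker lists in the results on the complex was not tested.

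In WT oocytes the complex ranged from one of the most abundant transcripts of the cell to a moderate one. *Zbed3*, which encodes a zinc finger protein that binds Axin and helps position organelles in the zygote, was the most abundant member, at 3000.1, 1989.6 and 1541 FPKM in WT replicates 1 to 3, ranks 18 to 56 of all genes in those libraries. *Ooep*, which encodes a small KH-domain protein of the core, came next at 1247, 1226 and 1194 FPKM, with a coefficient of variation of 2.19%. Of the 2964 genes that averaged 30 FPKM or more, 2.09% had a lower coefficient of variation in WT.

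*Padi6*, *Khdc3* and *Tle6* formed the middle of the order, with WT means of 593 ± 209, 546 ± 89.9 and 486 ± 224 FPKM (SD, n = 3). *Nlrp5* followed at 288 ± 45.7 FPKM, *Nlrp4f* at 274 ± 17.4 FPKM and *Nlrp2* was lowest at 87.9 ± 24.5 FPKM. Among neighbours in this order, the WT libraries did not overlap between *Zbed3* and *Ooep*, between *Ooep* and *Padi6*, and between *Nlrp4f* and *Nlrp2*. The ranges of the other 4 neighbouring pairs overlapped. With 3 libraries an exact permutation test of a pair within libraries cannot give a p under 0.25, which these 3 pairs and *Tle6* over *Nlrp5*, higher in 3 of 3 WT libraries, reached, so the test resolves the order of no pair.

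**Figure D1:**
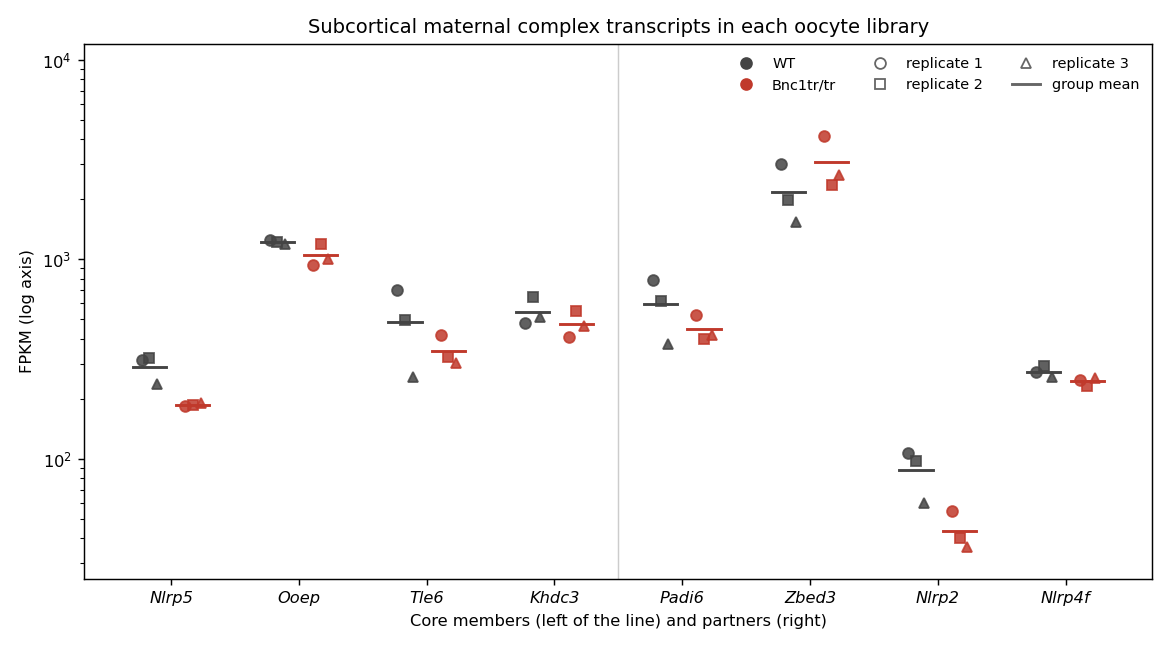
Level of each of the 8 members in the 6 libraries, in FPKM on a log axis, with each library as a point shaped by replicate, and group means as short lines. *Nlrp5* and *Nlrp2* are lower in every Bnc1tr/tr library than in any WT library, *Nlrp4f* is separated by a narrow margin, and the other 5 members overlap.

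In Bnc1tr/tr oocytes the same 8 transcripts were present at ranks 8 to 2706 of all genes, and 2 members were lower than in WT. A gene was called where the limma adjusted p was under 0.05 and the absolute log2 fold change was over 0.5. By this rule 2 of 8 members were lower and 0 were higher, where 31.8% of all 10560 tested genes were called, 7.68% lower and 24.1% higher. Scaling moved this split over all genes, from 2547 higher and 811 lower to 2008 and 1400 after median-ratio scaling and to 1637 and 1877 after quantile normalization, while the members stayed at 2 lower and 0 higher. The count of 0 higher members was also 0 at an unadjusted p under 0.05 and 0 with limma's trend and robust options. Because the members are abundant, the 2155 tested genes that averaged 50 FPKM or more were set beside them, a comparison chosen after the data had been seen, and 9.28% of these were lower and 11.9% higher. The 2 of 8 members called lower stand above these shares, but on 8 genes, and the difference was not tested. More genes reached 1 FPKM in Bnc1tr/tr libraries (11035, 10873 and 10682 in replicates 1 to 3) than in WT libraries (9747, 9748 and 9518). The part of this library-wide difference in the 24.1% of genes called higher was not tested.

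The log2 fold change was below 0 for 7 of the 8 members, with a median of -0.29. Below 0 were 39.6% of all tested genes and 54.2% of those with at least 50 FPKM, with medians of 0.15 and -0.04. Every Bnc1tr/tr library lay below every WT library for 3 members, *Nlrp5*, *Nlrp2* and *Nlrp4f*, a separation in this direction found for 14.1% of all tested genes and for 22.1% of those with at least 50 FPKM. For 0 members did every Bnc1tr/tr library lie above every WT library, against 32.7% of all genes, and groups separated in either direction for 46.8% of all genes. The sign of no member changed under upper-quartile, median-ratio or quantile scaling, although these moved the median of all genes from 0.15 to between -0.10 and 0.02.

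*Nlrp5* encodes MATER, the scaffold to which the other core proteins bind. It was measured at 183, 186 and 189 FPKM in Bnc1tr/tr replicates 1 to 3 and at 311, 318 and 236 FPKM in WT replicates 1 to 3. The groups did not overlap, and the Bnc1tr/tr libraries lay much closer to each other than the WT libraries did. Mean *Nlrp5* was 35.4% lower in Bnc1tr/tr oocytes, at 186 ± 3.16 against 288 ± 45.7 FPKM (SD, n = 3), with a log2 fold change of -0.62 (SE 0.18, 95% interval -1.01 to -0.22, limma adjusted p = 0.0259). Relative to the median of all genes the change was -0.76 on the log2 scale. The call held without WT replicate 3 (adjusted p = 0.0076) and was lost on leaving out any other library, with adjusted p = 0.0727, 0.0688 and 0.0652 without Bnc1tr/tr replicates 1 to 3 and 0.0760 and 0.113 without WT replicates 1 and 2. The pseudogene *Nlrp5-ps* accounts for most of the 12.4% of 31-base words that the gene's transcripts share with other genes.

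*Ooep* and *Khdc3* encode the KH-domain proteins FLOPED and FILIA of the core. *Ooep* was measured at 933, 1198 and 1005 FPKM in Bnc1tr/tr libraries and at 1247, 1226 and 1194 FPKM in WT libraries. Bnc1tr/tr replicate 2 lay within the WT range and the other 2 lay below it. The log2 fold change was -0.23 (SE 0.17, 95% interval -0.61 to 0.14, limma adjusted p = 0.316), which does not show a difference.

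*Khdc3* was measured at 405, 549 and 463 FPKM in Bnc1tr/tr libraries and at 478, 648 and 513 FPKM in WT libraries. In both genotypes replicate 2 was the highest, and the groups overlapped. Its log2 fold change was -0.21 (SE 0.19, 95% interval -0.64 to 0.23, limma adjusted p = 0.449). A same-strand annotation, *Gm20509*, covers the locus and holds the shared 36.7% of its 31-base words, so reads could have been divided between both annotations.

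*Tle6* encodes a Groucho-family protein of the core. It was measured at 419, 322 and 303 FPKM in Bnc1tr/tr libraries and at 704, 498 and 256 FPKM in WT libraries. WT replicates spanned 2.75-fold, and the lowest of all 6 libraries was WT replicate 3. The log2 fold change was -0.38 (SE 0.34, 95% interval -1.14 to 0.38, limma adjusted p = 0.430). Without WT replicate 3 it was -0.78 with adjusted p = 0.0288, past the threshold.

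*Padi6* encodes a peptidylarginine deiminase without known enzymatic activity that is required for the cytoplasmic lattices. It was measured at 528, 398 and 417 FPKM in Bnc1tr/tr libraries and at 790.45, 615 and 374 FPKM in WT libraries. As for *Tle6*, the highest and the lowest library were both WT. The log2 fold change was -0.35 (SE 0.27, 95% interval -0.97 to 0.27, limma adjusted p = 0.362), and without WT replicate 3 it was -0.65 with adjusted p = 0.0388. Leaving out that library thus raised the count of lower members from 2 to 4, while 9.75% of all genes and 11.2% of those with at least 50 FPKM were then lower.

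*Zbed3* was the single member with a positive log2 fold change. It was measured at 4151, 2366 and 2648 FPKM in Bnc1tr/tr libraries and at 3000.1, 1989.6 and 1541 FPKM in WT libraries. The highest library was Bnc1tr/tr and the lowest WT, and the groups overlapped. The log2 fold change was 0.50 (SE 0.29, 95% interval -0.16 to 1.16, limma adjusted p = 0.224), so no difference was shown, and an increase of up to 1.16 on the log2 scale lies within the interval.

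*Nlrp2* encodes an NLR-family protein of the maternal complex whose loss in mothers impairs early embryos. It was measured at 54.8, 40.2 and 35.9 FPKM in Bnc1tr/tr libraries and at 106.5, 97.1 and 60.2 FPKM in WT libraries. The groups did not overlap, with a narrow gap between Bnc1tr/tr replicate 1 and WT replicate 3. Mean *Nlrp2* was 50.4% lower in Bnc1tr/tr oocytes, at 43.6 ± 9.90 against 87.9 ± 24.5 FPKM (SD, n = 3), with a log2 fold change of -0.98 (SE 0.25, 95% interval -1.55 to -0.40, limma adjusted p = 0.0181). The call was kept without Bnc1tr/tr replicate 1 (adjusted p = 0.0192) and without WT replicate 3 (0.0034). It was lost without Bnc1tr/tr replicate 2 (0.0627) or 3 (0.0672), without WT replicate 1 (0.0543) or 2 (0.0678), and with no filter on low values (0.0510). *Nlrp2* transcripts share 6.31% of their 31-base words with other genes, and its exons overlap *Gm18757* on the opposite strand.

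*Nlrp4f* encodes an oocyte NLR protein that associates with the complex. It was measured at 247, 231 and 254 FPKM in Bnc1tr/tr libraries and at 272, 292 and 257 FPKM in WT libraries. Every Bnc1tr/tr library was lower than every WT library, with a narrow gap between replicate 3 of either genotype. The log2 fold change was -0.16 (SE 0.15, 95% interval -0.51 to 0.19, limma adjusted p = 0.461). Its transcripts share 15.9% of their 31-base words with other genes, mostly *Nlrp4g*.

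**Figure D2:**
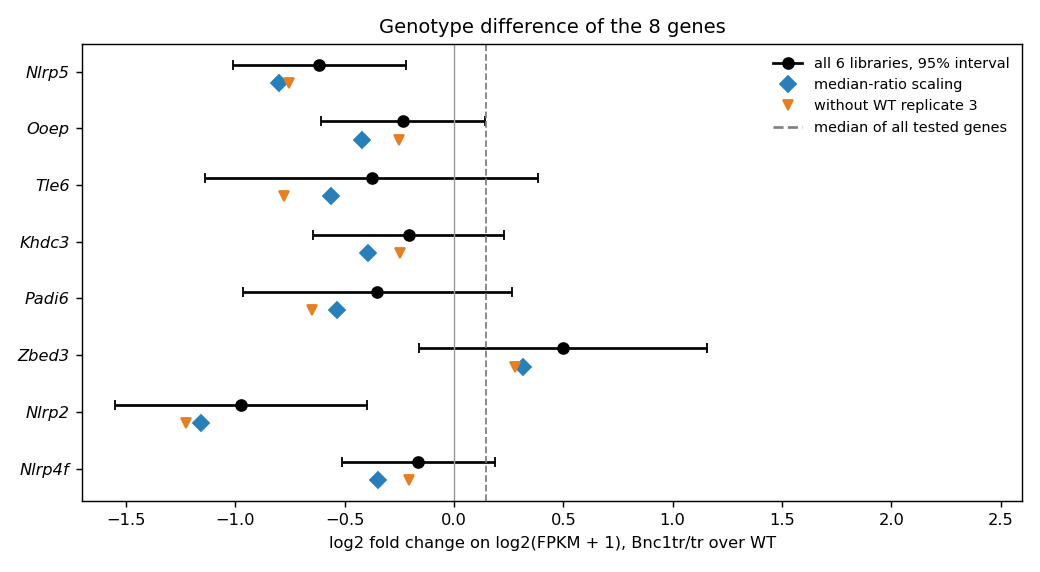
Log2 fold change of each member on the log2(FPKM + 1) scale, Bnc1tr/tr against WT, with all 6 libraries and 95% limma intervals (circles), after median-ratio scaling (diamonds) and without WT replicate 3 (triangles); the dashed line is the median of all tested genes. The intervals of *Nlrp5* and *Nlrp2* lie below 0 and those of the other 6 members include 0.

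The replicates varied together for some members and not for others. *Tle6*, *Padi6*, *Zbed3* and *Nlrp2* were highest in replicate 1 of both genotypes and, within WT, lowest in replicate 3. Within Bnc1tr/tr, *Ooep* and *Khdc3* were highest in replicate 2. For *Tle6* the WT deviations from the group mean were 0.65, 0.15 and -0.80 on the log2 scale, against 0.03, 0.00 and -0.03 for *Ooep*. *Nlrp5* had a coefficient of variation of 1.70% in Bnc1tr/tr libraries, a value below which 1.35% of those 2964 genes fell, and 15.8% in WT, close to the median of 15.1%.

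**Figure D3:**
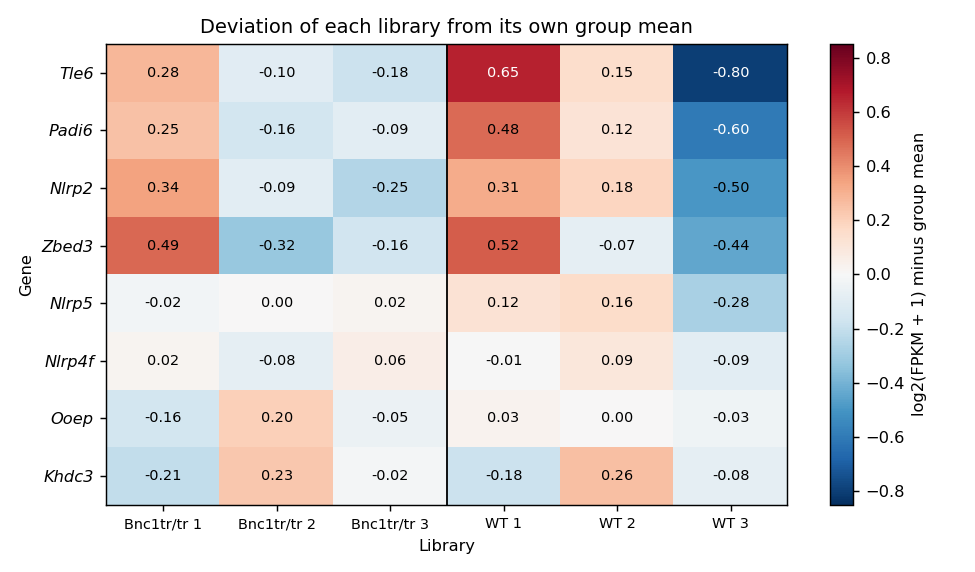
Heat map of each library's log2(FPKM + 1) minus its group mean, with members in lines, libraries in columns and the value in each cell. *Tle6* spans from 0.65 to -0.80 across the WT libraries, while *Ooep* spans from 0.03 to -0.03.

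Ratios to *Nlrp5* within a library do not depend on how libraries are scaled to each other. *Zbed3* was 15.8 times *Nlrp5* in Bnc1tr/tr oocytes and 7.31 times in WT oocytes as geometric means, a log2 difference of 1.12. *Nlrp4f* was 1.31 times *Nlrp5* in Bnc1tr/tr and 0.956 times in WT, and stood above *Nlrp5* in 3 of 3 Bnc1tr/tr libraries and 1 of 3 WT libraries. For *Zbed3*, *Ooep*, *Khdc3* and *Nlrp4f* the ratios did not overlap between the groups, with log2 differences of 1.12, 0.38, 0.41 and 0.45 (exact two-sided permutation p = 0.10 each, the smallest 3 against 3 allows; adjusted p = 0.175 over 7 ratios). Those of *Tle6* (0.24, exact p = 0.40), *Padi6* (0.27, exact p = 0.40) and *Nlrp2* (-0.36, exact p = 0.20) overlapped. A separation in this direction was found for 67.1% of all tested genes and for 57.6% of those with at least 50 FPKM, so 4 of 7 is near the background. All 7 ratios share the *Nlrp5* values, which were themselves lower in Bnc1tr/tr oocytes with little spread.

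**Figure D4:**
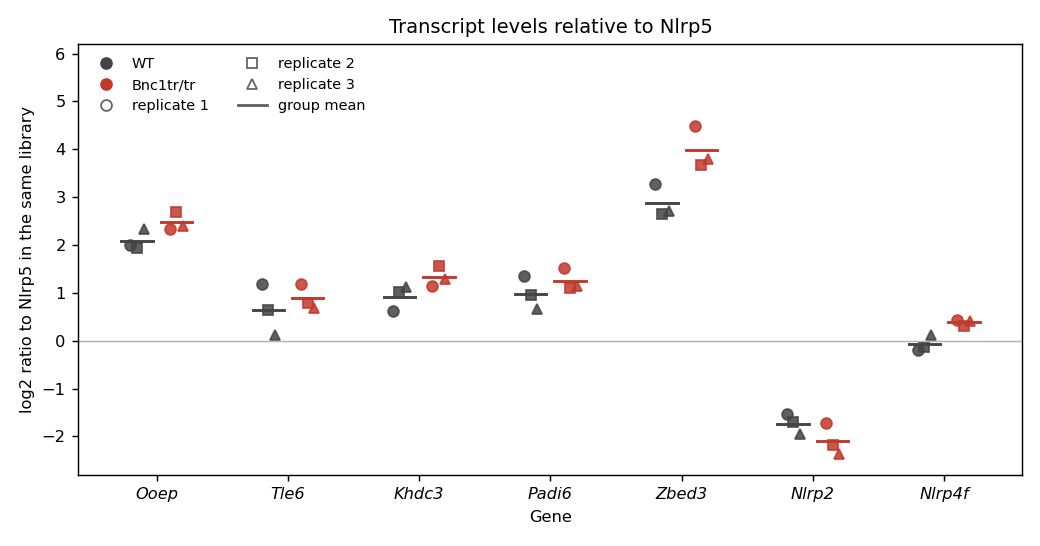
Log2 ratio of each other member to *Nlrp5* within each library, with points for libraries, shaped by replicate, and short lines for group means. For *Zbed3* the Bnc1tr/tr points lie above all WT points, with a mean difference of 1.12.

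The 8 members took 1.05%, 0.751% and 0.772% of the FPKM total in Bnc1tr/tr libraries and 1.03%, 0.835% and 0.612% in WT libraries, with overlapping ranges. *Zbed3* supplied 60.0%, 44.7% and 49.8% of the members' sum in Bnc1tr/tr libraries and 43.4%, 35.0% and 34.8% in WT libraries. These ranges were separated by a narrow gap, between 44.7% and 43.4%. The sum includes *Nlrp5* and *Nlrp2*, which were lower in Bnc1tr/tr, and *Zbed3* itself was not called. Without *Zbed3* the other 7 members took 0.408% ± 0.0179 of the total in Bnc1tr/tr and 0.508% ± 0.0964 in WT (SD, n = 3), and these ranges overlapped.

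Over 5279 genes that averaged 10 FPKM or more, core genes left out, the profiles over the 6 libraries closest to the mean profile of the core were those of *Tecr*, *Plrg1*, *Tmem255b*, *Golga7* and *Vmp1*, with root mean square differences of 0.0416 to 0.0536 on the log2 scale. None of these 5 genes was called (adjusted p 0.0976 to 0.198). Of the partners, *Nlrp4f* ranked 432, *Padi6* 1162, *Nlrp2* 2975 and *Zbed3* 4223 of 5279 in likeness to this mean. Core genes have no rank here, so these ranks do not show that partners were less alike than single core members. Between single members, *Padi6* was the 14th closest gene to *Tle6* of 5282, and *Tle6* the 31st closest to *Padi6*. *Ooep* was the 63rd closest to *Khdc3*, and *Khdc3* the 337th closest to *Ooep*. For *Nlrp2*, *Nlrp4f*, *Nlrp5* and *Zbed3* the closest other member ranked 181, 502, 815 and 2107.

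Of 13 genes for the lattice and its microtubules, 13 were tested, 1 was higher, 2 were lower and 10 did not pass, where 24.1% of all genes were higher and 7.68% lower. *Tubb2a*, a beta-tubulin, was lower (161 ± 1.79 against 316 ± 117 FPKM, log2 fold change -0.89, limma adjusted p = 0.0368), as was *Nlrp14*, an NLR protein of the oocyte (545 ± 16.0 against 872 ± 215 FPKM, -0.65, adjusted p = 0.0417), which is counted again among the paralogs. *Tuba1a*, an alpha-tubulin, was higher (48.1 ± 14.4 against 0.343 ± 0.494 FPKM, 5.21, adjusted p = 4.5e-06). Its WT values were 0.12, 0.91 and 0 FPKM. The other listed alpha-tubulins, *Tuba1b* (31.5 against 47.4 FPKM), *Tuba1c* (26.8 against 32.5 FPKM) and *Tuba4a* (58.4 against 72.8 FPKM), were not called. Whether reads were divided between these genes was not tested. The median log2 fold change of the list was -0.27, and calls of *Tubb2a* and *Nlrp14* were lost in 5 of the 6 leave-one-out fits.

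Of 7 tested genes for the transcriptional and signalling control of these oocyte genes, 0 were higher and 1 was lower, *Lhx8*, a LIM homeobox factor of primordial follicle oocytes (46.9 ± 4.06 against 76.7 ± 16.9 FPKM, -0.68, limma adjusted p = 0.0299, lost in 5 of 6 leave-one-out fits), against 24.1% higher and 7.68% lower over all genes. The E-box factor *Figla* was at 79.3 ± 9.77 against 100.6 ± 10.7 FPKM (-0.34, adjusted p = 0.165). *Nobox* was at 278 ± 69.8 against 264 ± 88.4 FPKM (0.11, adjusted p = 0.818). *Sohlh1* was listed at 0 in Bnc1tr/tr libraries and at up to 0.22 FPKM in WT libraries, and was not tested. The count of higher genes was 1 at an unadjusted p under 0.05 (*Taf4b*, 0.50, adjusted p = 0.0504) and 0 with limma's trend and robust options.

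Among 21 tested maternal-effect genes of other kinds, 2 were higher, 1 was lower and 18 did not pass, against 24.1% higher and 7.68% lower over all genes, with a median log2 fold change of -0.00. *Zar1l*, a relative of the RNA-binding zygote arrest factor, was lower (437 ± 29.4 against 768 ± 99.7 FPKM, -0.81, limma adjusted p = 0.0070). *Cdh1*, the adhesion protein E-cadherin, was higher (28.4 ± 1.17 against 11.7 ± 0.352 FPKM, 1.21, limma adjusted p = 0.00041). *Zfp36l2*, an mRNA-decay factor, was higher from a low WT level (2.87 ± 0.373 against 0.347 ± 0.0153 FPKM, 1.52, limma adjusted p = 0.00015). These 3 calls held in every leave-one-out fit.

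Members have many relatives, and 18 of the 31 listed paralogs were tested, of which 2 were higher and 5 were lower, against 24.1% and 7.68% of all genes. *Tle4*, a Groucho corepressor (8.50 ± 1.51 against 2.39 ± 0.101 FPKM, 1.47, limma adjusted p = 0.00032), and *Khdc1c* (39.9 ± 2.21 against 16.6 ± 2.22 FPKM, 1.22, adjusted p = 0.00069) were higher. *Dppa5a*, a KH-domain gene 7932 bases from *Ooep*, was at 2506 FPKM in Bnc1tr/tr and 1803 FPKM in WT (0.48, adjusted p = 0.0537). *Khdc1a* (0.52, adjusted p = 0.0991) and *Khdc1b* (0.12, adjusted p = 0.586) were not called. *Padi1* to *Padi4*, the deiminases beside *Padi6*, averaged under 1 FPKM over the 6 libraries and were not tested. *Padi3* was at 1.96, 0.77 and 0.34 FPKM in Bnc1tr/tr libraries and listed at 0 in WT libraries.

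The lower paralogs were all NLR-family genes. Together with the members, 12 NLRP genes were tested, 7 were lower and 0 were higher, and 11 had a log2 fold change below 0. This group was not one of the planned lists, and it counts *Nlrp5* and *Nlrp2* again. Of the 9 that are not members, 5 were lower. Over all genes 7.68% were lower, 24.1% higher and 39.6% below 0, and among genes with at least 50 FPKM, as were 10 of the 12, these shares were 9.28%, 11.9% and 54.2%. The count of 0 higher held in each of the 15 other limma fits, and at an unadjusted p under 0.05 it was 0. *Nlrp4e* was at 14.8 ± 4.48 against 38.4 ± 1.76 FPKM (-1.36, limma adjusted p = 0.0017), *Nlrp9a* at 139 ± 1.51 against 254 ± 53.8 FPKM (-0.85, adjusted p = 0.0087) and *Nlrp4b* at 98.5 ± 3.63 against 168 ± 8.77 FPKM (-0.77, adjusted p = 0.0051). These 3 calls held in every leave-one-out fit, whereas *Nlrp14* and *Nlrp9c* (-0.58, adjusted p = 0.0289) lost theirs in 5 and in 6 of the 6. *Nlrp4a* (-0.09, adjusted p = 0.697), *Nlrp4g* (-0.35, adjusted p = 0.160) and *Nlrp9b* (-0.47, adjusted p = 0.0736) were not called. The count of 7 was 3 to 7 over the leave-one-out fits and 6 to 9 over the 3 scalings. These genes were listed by name, and reads of near-identical family members may have been divided between them.

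**Figure D5:**
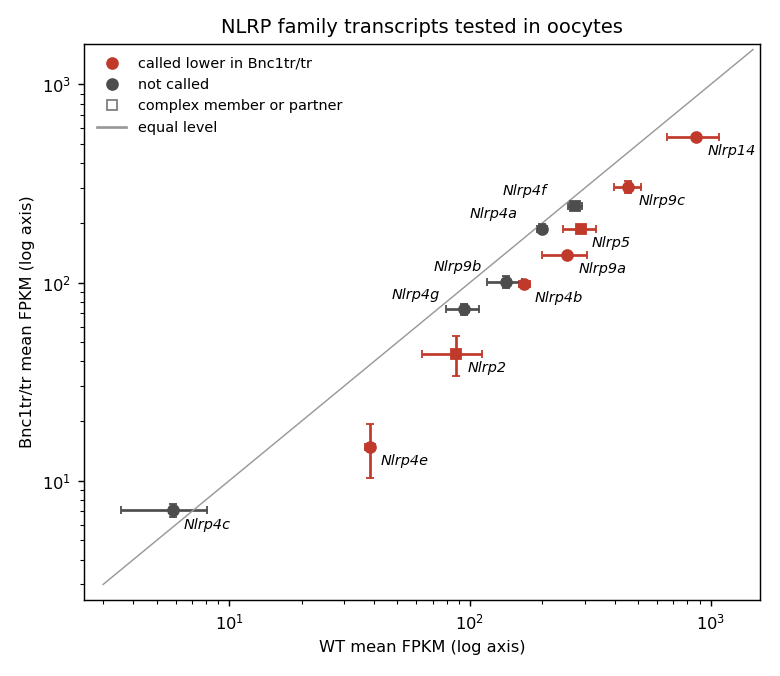
Mean FPKM of the 12 tested NLRP genes in WT (horizontal, log axis) against Bnc1tr/tr (vertical, log axis), with error bars of 1 SD, squares for complex members and a line of equal levels. All but *Nlrp4c* lie below the line, and 7 are called lower.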

How the data were processed

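Oocyte libraries were made by the authors by Smart-seq2 amplification of polyadenylated RNA and a transposase-based Illumina kit. The authors deposited a table of FPKM values (not counts) per library, rounded to 2 decimals. The submitters' processing notes name HISAT2 2.0.4, Bowtie2 2.2.5, RSEM 1.2.12 and GRCm38.p6, without roles. The gene annotation and gene filter are not given in the sources used here. Of 17577 genes, 25 symbols turned into dates by a spreadsheet were restored through the NCBI Gene ID, and 17470 IDs were in the RefSeq table. Values of genes that share sequence with relatives may depend on how the counting tool divided reads.

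Groups were compared with limma 3.58.1 (R 4.3.3) on log2(FPKM + 1) for the 10560 genes that averaged 1 FPKM or more, so fold changes are on that scale and understate low genes. Benjamini-Hochberg adjustment was over all tested genes. In simulated data for this comparison (10560 genes), 57 of 100 genes with a log2 change of 1 and 92 of 100 with a change of 2 were recovered, with 10 false calls. No other simulated gene was changed, whereas 31.8% of tested genes were called in the data. The simulated recovery therefore need not hold for the data. Within-library ratios were compared by exact two-sided permutation tests. Depth was estimated from FPKM steps and used in no test. Amplified cDNA without molecular identifiers is not a count of molecules. Python 3.11.15, scipy 1.17.1 and matplotlib 3.10.9 were used. Named genes were the 8 members, *Bnc1*, called genes of the lists with the 3 largest changes in each direction, and paralogs of at least 10 FPKM. Members and lists were chosen with earlier results of these data known. The list genes (*Tle7*, *Nlrp4d*, *Amh*, *Col1a2*, *Hbb-bt*) were not analysed here. Alternatives were another pseudocount, filters, scalings, fold thresholds, limma options, a replicate block and leaving out each library.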

Additional observations from a re-analysis of the deposited data

How the results depend on the processing

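Of 290 values under alternatives, 255 were labelled as unchanged, by a rule that differed between kinds of value. Fold changes had to keep direction and call, and ratios direction only. Counts had to stay within a set factor of the main count, and share differences within the spread between libraries. The members' share difference, 0.034 percentage points, changed sign to -0.063 without Bnc1tr/tr replicate 1 and -0.073 without WT replicate 3. Members called lower numbered 1 with no filter, 0 at an absolute log2 fold change over 1, and 0 to 4 on leaving out each library in turn. Over all genes, calls higher in Bnc1tr/tr numbered 1413 with a minimum mean of 5 FPKM, 1637 after quantile normalization and 1418 at a fold threshold of 1 (leave-one-out 1867 to 2560), against 2547 as reported. Lower calls numbered 1236 after upper-quartile scaling, 1400 after median-ratio scaling, 1877 after quantile normalization and 259 at a fold threshold of 1 (leave-one-out 416 to 1037), against 811. Scaling thus moved the split between higher and lower calls. The *Tle6* to *Nlrp5* ratio difference was 0.24 and ranged from -0.024 without WT replicate 3 to 0.50 without WT replicate 1. Median-ratio scaling gave 4 lower genes in the lattice list and 2 in the regulator list, and quantile normalization gave 2 in the regulator list and 2 in the maternal-effect list. The cause of these shifts was not tested.

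Same-numbered libraries deviated with correlations of 0.278, -0.0344 and 0.124, not all above 0.1, and whether the numbers mark litters is not given, so the libraries were treated as sharing only a number. In a fit with a replicate block, 2 members were lower (*Nlrp5* adjusted p = 0.0295, *Nlrp2* adjusted p = 0.0041, limma), and all genes gave 2781 higher and 952 lower. No count-based tool was run because the values are FPKM. Depth did not limit the detection of any member, but 3 libraries a group limit the size of change that can be called.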

Other observations

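Among pairs of members examined after their values had been seen, the ratio of *Tle6* to *Padi6* was 0.794, 0.809 and 0.727 in Bnc1tr/tr replicates 1 to 3 and 0.891, 0.808 and 0.685 in WT replicates 1 to 3. It spanned less than *Tle6* or *Padi6* alone, which varied 2.75-fold and 2.11-fold across the WT libraries. *Ooep* to *Khdc3* was 2.30, 2.18 and 2.17 in Bnc1tr/tr and 2.61, 1.89 and 2.33 in WT. Both pairs were chosen for their pattern, so no test was made.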
